A study of Mus musculus with 2 samples.

Results

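The nuclear genes of mitochondrial oxidative phosphorylation were described on 1 array of lung epithelial cells labelled Mob1DKO and 1 array of wild-type (WT) lung epithelial cells. Members were all non-control probes whose RefSeq accession led to a gene symbol starting with Nduf, Sdh, Uqcr or Atp5, or with Cox4, Cox5, Cox6, Cox7 or Cox8. This gave 128 of 55681 probes and 97 of 20660 named genes. Of these genes 84 encode subunits of complexes I to V, and 13 encode assembly factors, the supercomplex factor Cox7a2l among them.

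Both samples are C57BL/6 mice at 10 weeks, per the labels, and their total RNA was measured on Agilent 1-colour arrays with a Cy3 label. Mob1DKO is not spelled out in the labels. From what is known of such mice it is taken to mean that Mob1a and Mob1b are lost, both adaptors through which Hippo signalling switches on LATS kinases. The labels give neither the promoter or cell type in which the genes were deleted nor the number of animals behind each array. A level is the log2 processed signal relative to the array's own 75th percentile, and a difference is the Mob1DKO level minus the WT level. There were no replicates, so nothing was tested. Precision is limited by having 2 arrays.

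Oxidative phosphorylation passes electrons along a chain in the inner mitochondrial membrane and uses the proton gradient that results to make ATP. Complex I (NADH dehydrogenase) and complex II (succinate dehydrogenase) feed electrons to ubiquinone, complex III hands them to cytochrome c, complex IV (cytochrome c oxidase) reduces oxygen, and complex V is the ATP synthase. Complex II alone is built from nuclear genes only and is also an enzyme of the tricarboxylic acid (TCA) cycle. In the lung, alveolar type 2, club and ciliated cells are rich in mitochondria.

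The preparations differed in ways that stand beside every result here. All 6 markers shared by lung epithelial types were well above background on both arrays, with differences of −0.53 to 0.18. Median differences were −1.69 for 6 goblet cell markers, −0.84 for 3 club cell markers, −0.30 for 6 alveolar type 2 markers, 0.35 for 4 alveolar type 1 markers and 0.01 for 6 ciliated cell markers. The 3 measured red cell markers were all called lower, with a median of −3.61. Mob1b differed by −2.0. Mob1a, at −2.49 in Mob1DKO and −2.56 in WT cells, did not show the loss that the label is read to mean, and where its probe lies relative to the deleted part is not known here. Xist differed by −2.29, and the Y-linked Ddx3y stood clear of background only in Mob1DKO cells, so sex markers move with the genotype label. The part of cell makeup, sex or RNA handling in the differences below was not tested. Fewer cells of a type and less RNA per cell cannot be told apart in such samples.

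Most subunit genes were slightly lower on the Mob1DKO array. Of the 97 members, 93 were well above background on both arrays, 1 on the WT array only, and 3 on neither. The 13866 genes well above background on both arrays had a median of 0.01, called the both-array median here. Among the 93 members, 80 differences lay below it, as 50% of those 13866 genes do. With another background correction (normexp, described below), 44 of the 93 lay below the median of those genes. The 81 measured subunits had a median difference of −0.16, a change of −10.2%, with quartiles of −0.21 and −0.09. All 15099 genes tested had a median of 0.02 with quartiles of −0.18 and 0.22, so the subunits lay in the lower part of the range of all genes and within a narrower span. None reached 2-fold higher (3.79% of all genes did) and 1, Ndufa4l2, was at least 2-fold lower (2.91% of all genes, or 6.7% in either direction). No member was higher by 0.32 or more on the log2 scale (14.0% of all genes on both arrays) and 6 were lower by as much (14.3%), namely Ndufaf2, Sdhaf3, Ndufaf8, Cox6a2, Ndufaf5 and Uqcrb. The shares and the span of all genes take in many dimmer probes. The median level was 0.43 for all genes tested and 4.31 for members. At levels of 4 to 6, genes other than subunits had quartiles of −0.13 and 0.14, and subunits −0.21 and −0.11. With the processed signal, the shift thus came from many small differences of 1 sign, not from large ones.

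The technical error of a bright probe was an SD of 0.085 for a single-spot difference, from 184 probes printed at several spots. Probes below the 75th percentile had an SD of 0.37. Of 77 subunits at or above the 75th percentile, 61 were lower than the both-array median by over 1 such SD (33.5% of all genes at this level) and 1 was higher by as much (36.2%). A single member, Uqcrc2, a core protein of complex III, was printed at 10 spots. Its 10 differences ran from −0.13 to 0.02, with a mean of −0.09 and an SD of 0.047. This error covers spots of 1 array pair and leaves out animals and RNA preparations.

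**Figure D1:**
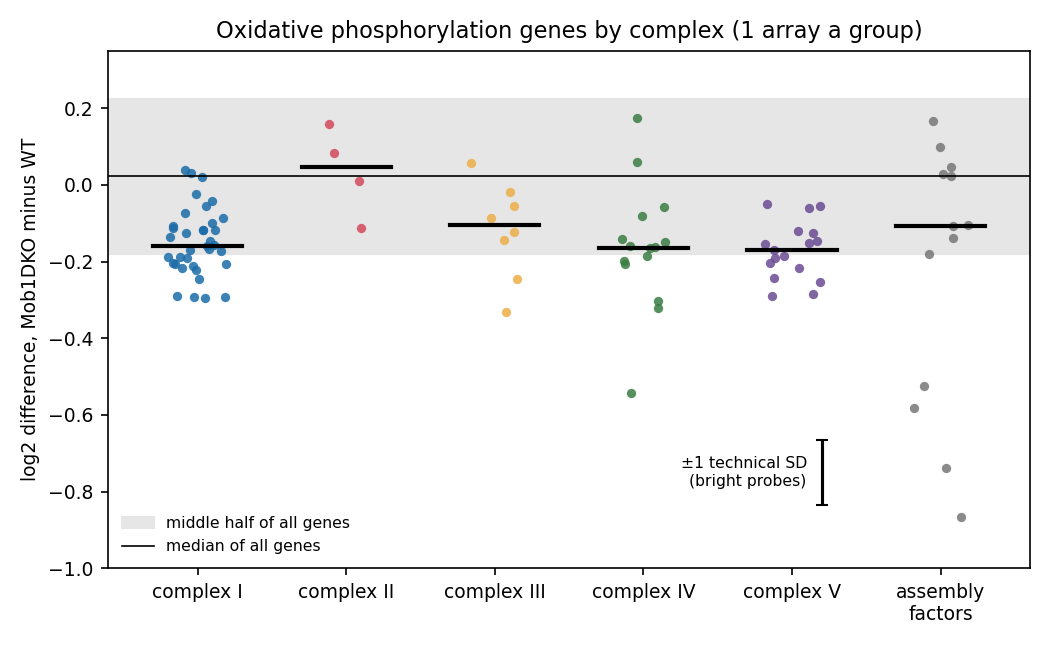
Each point is the log2 difference (Mob1DKO minus WT) of a gene, grouped by complex, with group medians as thick lines. The grey band spans −0.18 to 0.22, the quartiles of all genes, and the error bar is the technical SD of 0.085 each way. Points of complexes I, III, IV and V lie mostly below the line for all genes (0.02), those of complex II lie on both sides of it, and Ndufa4l2, at −3.38, is below the plotted range.

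The very brightest genes tended to lie lower on the Mob1DKO array. At levels of 8 and above, 108 genes had a median of −0.20, but no subunit lies there. The subunits are bright as well, with a median level of 4.39 over both arrays. The subunits were therefore set beside other genes of a like level. At levels of 4 to 6, 46 subunits had a median of −0.17 and 1040 other genes a median of 0.01, and 44 of the 46 lay below that second median. For levels of 2 to 4 the medians were −0.13 for 19 subunits and 0.03 for 2889 other genes. Between 6 and 8 they were −0.11 for 10 subunits and −0.04 for 275 other genes. The subunits lay below other genes in each of these bands, by least in the brightest of them. Other genes here are all that are not subunits, cytosolic ribosomal genes included, so the gap depends on that set too. Between 0 and 2 the medians were −0.16 for 2 subunits and 0.03 for 4048 other genes. Below a level of 0 the order was reversed, at 0.06 for 3 subunits and −0.01 for 5426 other genes.

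With a model-based background correction (normexp, offset 50) in place of the processed signal, the subunit median relative to all genes was 0.04 in place of −0.18. That correction moved bright genes as a class, since other genes at levels of 4 to 6 then had a median of 0.20. Within this band the gap between subunits and other genes was −0.17 with the processed signal and −0.17 with the correction, and ran from −0.174 to −0.168 over all 8 settings. Genes stayed in the bands set by the processed signal throughout. A setting that moves genes of a like level together cannot change such a gap, so its steadiness is largely built in. At levels of 2 to 4 the gap was −0.15, and −0.11 with the correction. Between 6 and 8 it was −0.08, and −0.05 with the correction, where 6 of 10 subunits in place of 9 lay below other genes.

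**Figure D2:**
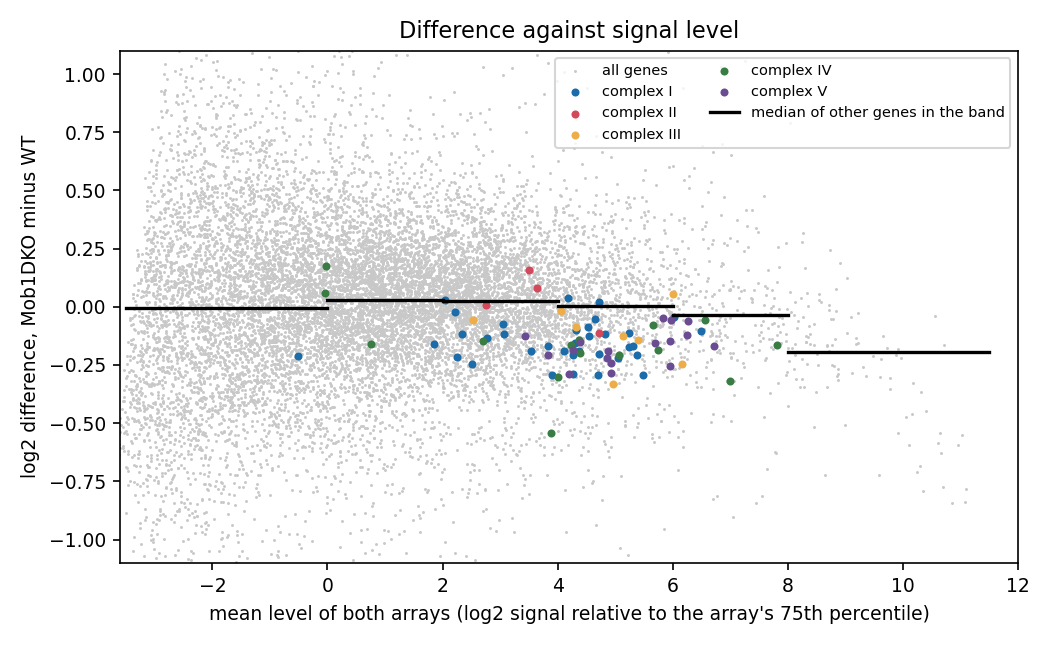
The log2 difference (Mob1DKO minus WT) is plotted against the mean level of both arrays for genes well above background on both. Grey points are all genes, coloured points are subunits by complex, and black segments are medians of other genes per band of level. Between levels of 4 and 6, 44 of 46 subunits lie below the segment, which is at 0.01.

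Complex I takes electrons from NADH. Its 36 measured subunits had a median difference of −0.16, with quartiles of −0.21 and −0.10, and 33 lay below the both-array median. All 7 nuclear-encoded core subunits were lower on the Mob1DKO array. Ndufv1, which binds NADH and the flavin, had a level of 4.49 in Mob1DKO and 4.58 in WT cells (−0.09). Its partners in the arm that takes up electrons, the iron-sulphur proteins Ndufv2 and Ndufs1, had levels of 3.44 and 3.01 in Mob1DKO, against 3.63 and 3.13 in WT cells. Of the core subunits in the arm that reduces ubiquinone, Ndufs7 had a level of 4.61 in Mob1DKO and 4.82 in WT cells (−0.20), the lowest difference of the core. Ndufs3 and Ndufs8 both differed by −0.16.

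The 29 accessory subunits of complex I, which surround and stabilise the core, had a median of −0.17. By name, the 13 Ndufa genes had a median of −0.21, the 10 Ndufb genes −0.12, and the 6 others −0.17. Values ran from −0.29 for Ndufv3 to 0.04 for Ndufb3, and Ndufb3 was 1 of 3 accessory genes above the both-array median, beside Ndufa8 and Ndufa12. The brightest probe in this group, that of Ndufa13, gave 6.43 in Mob1DKO and 6.54 in WT cells. A second, dimmer Ndufv3 probe differed by −0.46, with the same sign as the first.

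Complex II was the exception in the order of medians. Its 4 subunits had a median of 0.05 (0.02 relative to all genes, or −0.03 with each probe counted once), and their levels in Mob1DKO cells were not consistently below those in WT cells. Sdha, the flavoprotein that oxidises succinate, had 3.69 in Mob1DKO and 3.61 in WT cells (0.08). Sdhd, a membrane anchor that helps form the ubiquinone site, had 3.59 in Mob1DKO and 3.43 in WT cells (0.16). Its fellow anchor Sdhc had 2.76 in Mob1DKO and 2.75 in WT cells (0.01), though a second Sdhc probe differed by −0.14. Sdhb, the iron-sulphur protein, had 4.67 in Mob1DKO and 4.78 in WT cells (−0.11), a value inside the range of complex I. With 4 genes, of which Sdhd and Sdhb differed from the both-array median by over 1 technical SD in opposite directions, the gap to the other complexes has no test.

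Complex III was intermediate by the brightest probe of each gene. With each probe counted once it lay near the others, at −0.16 relative to all genes against −0.17 for complex I. By brightest probes, the 8 subunits of complex III had a median of −0.10, and 7 lay below the both-array median. The Rieske iron-sulphur protein Uqcrfs1, the catalytic subunit among them, had 4.04 in Mob1DKO and 4.06 in WT cells, a difference within the technical SD. Uqcrb, which contacts the ubiquinone site, had 4.80 in Mob1DKO and 5.13 in WT cells (−0.33). Its other probes differed by −0.26 and −0.35, so all 3 gave a lower value in Mob1DKO cells. Uqcrh, the hinge protein that docks cytochrome c1, had 6.03 in Mob1DKO and 6.28 in WT cells (−0.25). Uqcrq went the other way at 6.04 in Mob1DKO and 5.98 in WT cells (0.06), but its second probe differed by −0.10. Cyc1, cytochrome c1 of the same complex, lies outside the name rule and differed by −0.12, whereas cytochrome c itself (Cycs) differed by 0.01.

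Complex IV subunits had a median of −0.16 over 16 measured genes. Ndufa4 and Ndufa4l2 were counted here, since the Ndufa4 protein is a component of complex IV despite its name. The 11 subunits that are not themselves tissue isoforms all lay lower on the Mob1DKO array, between −0.32 and −0.06. Cox8a had 6.84 in Mob1DKO and 7.16 in WT cells (−0.32), and its second probe differed by −0.25. Cox4i1, the subunit through which ATP acts on the enzyme, had 6.54 in Mob1DKO and 6.60 in WT cells (−0.06). Cox6a1, the brightest probe of the complex, had 7.74 in Mob1DKO and 7.90 in WT cells (−0.16).

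The tissue isoforms of complex IV did not share 1 direction. Ndufa4l2, a paralogue of Ndufa4 known to be induced by hypoxia, was the only member past 2-fold. Its signal was 16.1 in Mob1DKO cells, not well above background, and 89.0 in WT cells. With its WT value taken as exact, the processed signal put it at least 9.83-fold lower in Mob1DKO cells. This rests on 1 probe whose WT level of −0.80 lies in the range where the technical SD is 0.37. Relative to all genes its difference was −3.40, or −1.64 under the normexp correction, whose offset shrinks faint differences. Ndufa4 itself had 3.86 in Mob1DKO and 4.16 in WT cells (−0.30). Cox6a2, the heart and skeletal muscle form of Cox6a, had 3.61 in Mob1DKO and 4.15 in WT cells (−0.54). Cox4i2, a form made in lung and induced by hypoxia, had −0.02 in Mob1DKO and −0.07 in WT cells (0.06). Cox7a1, another muscle form, had 0.07 in Mob1DKO and −0.11 in WT cells (0.17), while its partner Cox7a2 differed by −0.17. Cox6b2 and its partner Cox6b1, at −0.16 and −0.15, differed alike. For Cox7b2, Cox8b and Cox8c neither array was well above background.

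**Figure D3:**
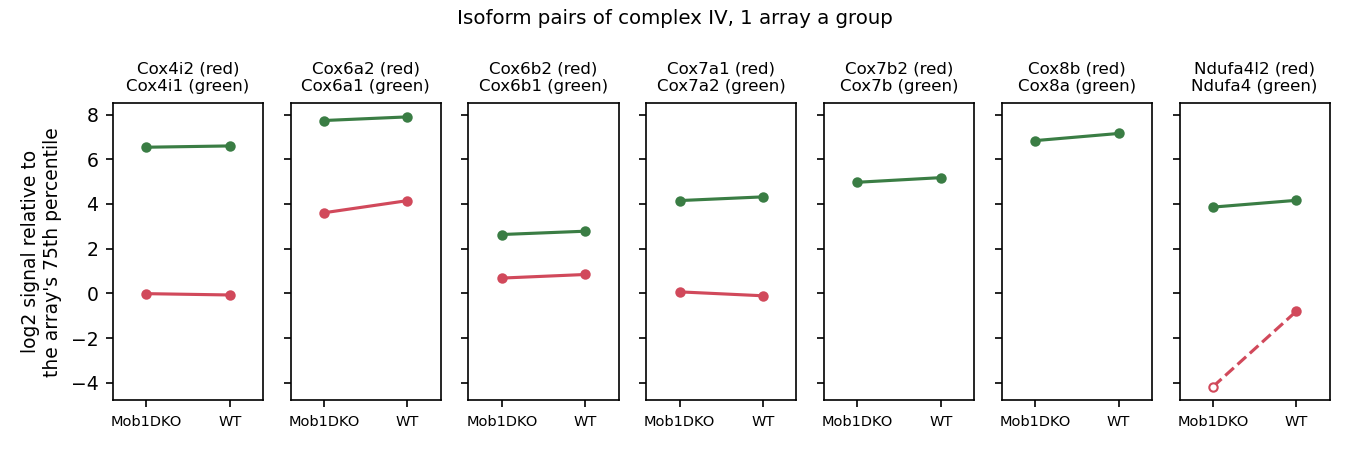
Levels (log2 signal relative to the array's 75th percentile) on the Mob1DKO and WT arrays are joined for each of 7 isoform pairs. Red marks the tissue-restricted form, green its widely expressed partner, and an open point with a dashed line a value not well above background; Cox7b2 and Cox8b, above background on neither array, are not drawn. Only the slope within a gene can be read, since levels of different probes are not comparable, and that of Ndufa4l2 is the steepest.

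Markers of cells that could carry these isoforms were read beside them. Among 4 endothelial markers, Kdr differed by −0.60 and Pecam1 by 0.12, and Cdh5 and Cldn5 were above background on neither array. Of the leukocyte markers, Lyz2 differed by −0.18 and Cd3e by −0.13, Cd79a was above background on the Mob1DKO array only, and Ptprc on neither. Among 9 measured markers of cardiac and skeletal muscle, 5 were below 0 and the summed linear signal, relative to the 75th percentile, was 8.34 in Mob1DKO and 10.5 in WT cells. Atrial Myl7 and cardiac actin Actc1 differed by −0.89 and −0.63, Tnni3 by 0.35, and Ckm, at 1.21, was above background in Mob1DKO cells only. The 5 mesenchymal markers summed to 41.4 in Mob1DKO and 54.6 in WT cells, and 3 of them were below 0. In a set of 7 pericyte genes chosen after the data were seen, 6 were measured and summed to 2.91 in Mob1DKO and 3.23 in WT cells, with Cspg4 at −1.36, Notch3 at 0.13 and Kcnj8, above background in Mob1DKO cells only, at 1.11. Among 8 hypoxia response genes, also chosen afterwards, 2 were below 0 and the median was 0.29. Egln3, above background in Mob1DKO cells only, was the highest at 2.20, and Car9 was the lowest at −0.37. The part of these cells or of hypoxia in the isoform values was not tested.

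Complex V was the most uniform of the complexes by the brightest probe of each gene, though its single probes ran from −0.31 (Atp5k) to 0.11 (Atp5c1). All 17 subunits lay below the both-array median, between −0.29 and −0.05, with a median of −0.17 (−11.1%). Atp5b, the beta subunit that carries the catalytic sites, had 6.63 in Mob1DKO and 6.80 in WT cells (−0.17). Atp5a1, the alpha subunit beside it, had 5.88 in Mob1DKO and 6.03 in WT cells (−0.15). The gamma subunit of the central stalk, Atp5c1, had 4.79 in Mob1DKO and 5.08 in WT cells (−0.28), but its second probe differed by 0.11. In the same stalk Atp5d and Atp5e, the delta and epsilon subunits, differed by −0.29 and −0.25. Atp5g1, Atp5g2 and Atp5g3, which encode the same mature protein of the rotating c ring, differed by −0.22, −0.12 and −0.05. Among the other subunits, Atp5h of the outer stalk had 6.24 in Mob1DKO and 6.30 in WT cells (−0.06).

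Probes of the same gene mostly gave 1 sign, and the widest gaps were in complex V. Of 23 members with several probes well above background on both arrays, 17 had probes of 1 sign and 6 had both signs, and the median gap between the highest and lowest probe was 0.085. The widest gaps were those of Atp5c1, given above, and of Atp5l, a membrane subunit of complex V, whose 5 probes ran from −0.30 to 0.09. Ndufa5, Ndufv3 and Ndufb5 had gaps of 0.21, 0.16 and 0.16, each with probes of 1 sign. A difference of 0.1 to 0.2 for a single gene is therefore of the size by which its own probes can disagree.

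The assembly factors spread far more widely than the subunits, but they are dimmer, with a median level of 0.76 against 4.39. The 2 groups were not compared at a like level. Other genes had quartiles of −0.13 and 0.19 at levels of 0 to 2, and of −0.28 and 0.24 below 0. The 13 assembly factors had a median of −0.11 with quartiles of −0.53 and 0.03, and 4 were lower by 0.32 or more, as were 14.3% of all genes on both arrays. Ndufaf2, a late assembly factor of complex I, had 1.43 in Mob1DKO and 2.30 in WT cells (−0.87). Ndufaf8 and Ndufaf5, which act together in maturing Ndufs7, differed by −0.58 and −0.53, on probes faint enough for a technical SD of 0.37. Sdhaf3, which helps insert iron-sulphur clusters into Sdhb, had −2.67 in Mob1DKO and −1.93 in WT cells (−0.74) on a probe as faint. At the other end, Sdhaf2, which attaches the flavin to Sdha, differed by 0.17, and Ndufaf1 by 0.10. The low values here rest on 1 probe per gene, since the other Ndufaf5 probe was above background on neither array.

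The members on the X chromosome, read beside the sex markers, did not stand out. Ndufa1 had 5.19 in Mob1DKO and 5.30 in WT cells (−0.11), Ndufb11 had 6.00 in Mob1DKO and 6.04 in WT cells (−0.04), and Cox7b had 4.97 in Mob1DKO and 5.18 in WT cells (−0.21). All 3 lay within the range of the autosomal subunits of their complexes.

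Other genes of mitochondrial energy supply were described from lists. None of 13 TCA cycle genes differed by 0.32 or more, and their median was 0.00, with Suclg1 at 0.26 and Idh3g at −0.20. The median of 16 glycolytic genes was 0.03, with Ldhb, a lactate dehydrogenase subunit, at −0.53 and Pfkl, a phosphofructokinase, at 0.33. The median of 12 measured genes of coenzyme Q synthesis was 0.09, from −0.34 for Coq7 to 0.63 for the faint Pdss2. Among 32 measured assembly factors outside the name rule the median was −0.0008, and 1 passed 2-fold, the complex I factor Timmdc1, with 3.20 in Mob1DKO and 4.53 in WT cells (2.52-fold lower). Regulators of mitochondrial genes had a median of 0.06 over 14 measured genes. Slirp, which binds mitochondrial mRNAs, differed by −0.43 and Gabpb1, a partner of the ETS factor Gabpa, by 0.37, while Nrf1 differed by −0.16, Ppargc1a by 0.08 and Tfam by −0.04. No probe was named here for any of the 13 mitochondrially encoded subunits, so they were not analysed here.

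Ribosomal protein genes lay close to the subunits. The 86 measured cytosolic ribosomal genes had a median of −0.15, and 80 of 85 on both arrays lay below the both-array median. The 77 mitochondrial ribosomal genes had a median of −0.10, and 56 lay below it. The cytosolic ribosomal genes were brighter, with a median level of 7.23, and other genes at levels of 6 to 8 had a median of −0.04. That set is all genes but the subunits, ribosomal genes among them, so it is no separate reference. Among the mitochondrial ones Mrps10 was the lowest at −0.71 and Mrpl1 the highest at 0.60. The subunit median was thus 0.16 below that of the TCA cycle genes (−0.158) and equal to that of the cytosolic ribosome within 0.01 (−0.0025). These are medians of lists on 1 pair of arrays and have no test.

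**Figure D4:**
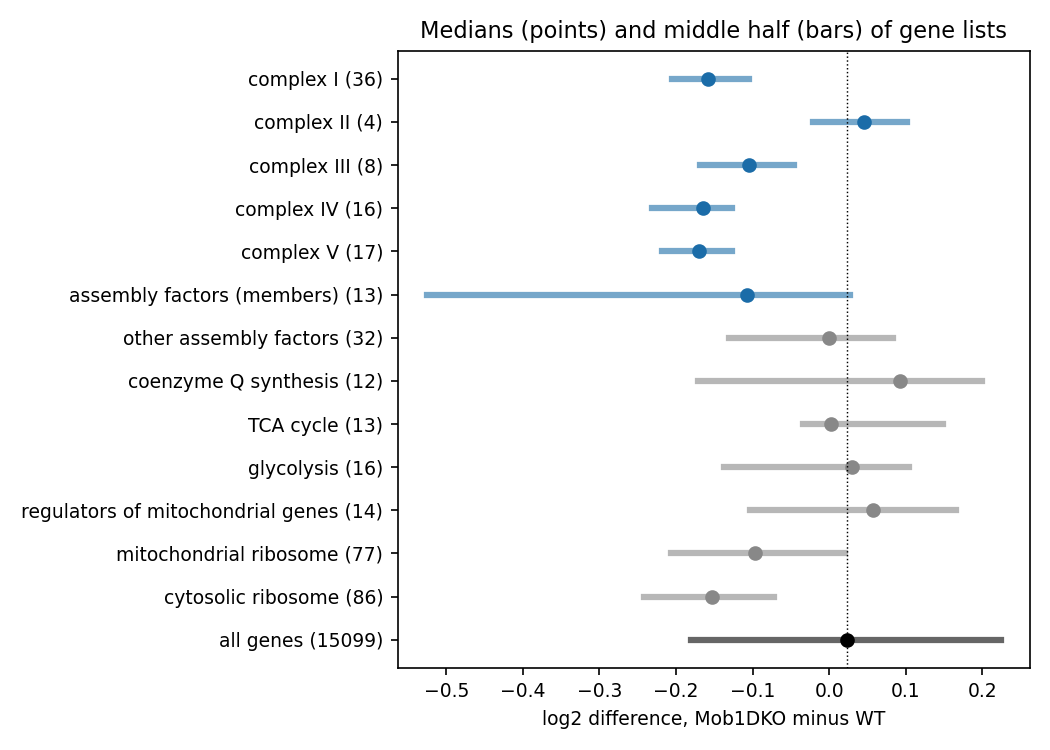
Points are median log2 differences (Mob1DKO minus WT) of gene lists, bars run between the quartiles, and the number of measured genes stands in parentheses. The medians of complexes I, III, IV and V lie between −0.17 and −0.10, beside the cytosolic ribosome at −0.15 and left of the dotted line for all genes at 0.02, while complex II lies at 0.05.

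Promoter windows were examined for letters that the members share, since the subunits moved together and the name rule uses no sequence. RefSeq windows on GRCm38.p6, from 250 bases before to 50 after the start site, were matched by symbol for 68 of the 84 subunits. The letters of the NRF1 site, GCGC, any single base and TGCGC, were found on either strand in 25% of the subunit genes and in 7.17% of 17492 protein-coding genes. AAGATGGC, the core of sites for YY1 when near a start site, was found in 14.7% of subunit genes and 3.57% of all. CCGGAAG, bound by ETS factors such as GABPA, was found in 25% and 12.95%, and TCAAGGTCA, the site of ERR receptors, in 2.94% and 0.38%. Among genes measured here the ETS letters were found in 17.1%, the NRF1 letters in 9.71% and the YY1 letters in 4.6%. In ribosomal protein genes the ETS letters were more frequent than in subunits, at 37.7% for the mitochondrial and 38.8% for the cytosolic ribosome, and the YY1 letters were found in 17.4% and 8.96%. For the NRF1 letters these shares were 18.8% and 8.96%. A match is a description of the window and not evidence of binding.

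The differences of subunits with and without each set of letters overlapped. The 17 subunits with the NRF1 letters had a median of −0.12 and the 49 without −0.17, and both sets spanned members above and below 0. For the ETS letters the medians were −0.16 with and −0.16 without. Only 2 subunits had the ERR letters, Atp5g3 at −0.05 and Sdhd at 0.16, against a median of −0.16 for the 64 without. The 10 subunits with the YY1 letters ran from −0.25 to −0.13, with a median of −0.20, against −0.15 for the 56 without, whose range of −0.320 to 0.175 includes theirs. The YY1 letters lay 22 to 38 bases after the start site on the sense strand in 8 of these 10, where they hold an ATG. By complex, the NRF1 letters were found in 7 of 32 windows of complex I and 2 of 3 of complex II. They were found in 1 of 5 windows of complex III, 1 of 13 of complex IV and 6 of 15 of complex V.

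Windows are shown for 3 subunits with the YY1 letters, all lower in Mob1DKO cells, and for the complex II genes Sdha and Sdhd, which were not, to set their matches side by side. Capitals mark every match to the letters above on either strand, and sequences run 5′ to 3′ along the gene. Ndufs6 (chr13:73328433-73328732, minus strand) holds an NRF1 match and a YY1 match, Ndufs7 (chr10:80249199-80249498, plus strand) and Atp5j2 (chr5:145191492-145191791, minus strand) a YY1 match each.
Ndufs6: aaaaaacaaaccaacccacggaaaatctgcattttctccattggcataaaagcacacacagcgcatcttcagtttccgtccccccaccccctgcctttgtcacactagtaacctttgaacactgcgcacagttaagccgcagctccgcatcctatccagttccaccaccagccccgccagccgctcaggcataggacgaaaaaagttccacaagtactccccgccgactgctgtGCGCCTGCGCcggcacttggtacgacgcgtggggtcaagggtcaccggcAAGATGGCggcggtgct
Ndufs7: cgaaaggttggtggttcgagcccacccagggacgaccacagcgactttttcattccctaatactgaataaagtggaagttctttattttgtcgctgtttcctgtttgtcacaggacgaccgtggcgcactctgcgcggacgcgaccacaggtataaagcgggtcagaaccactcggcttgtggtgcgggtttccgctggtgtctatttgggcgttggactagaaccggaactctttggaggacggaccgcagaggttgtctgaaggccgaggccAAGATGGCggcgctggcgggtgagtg
Atp5j2: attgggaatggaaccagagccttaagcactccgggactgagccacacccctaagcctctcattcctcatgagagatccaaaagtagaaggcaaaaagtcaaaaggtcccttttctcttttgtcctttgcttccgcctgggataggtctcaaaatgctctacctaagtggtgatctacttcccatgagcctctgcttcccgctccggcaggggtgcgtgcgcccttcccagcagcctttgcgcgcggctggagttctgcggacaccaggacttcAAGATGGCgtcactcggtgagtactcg
Sdha (chr13:74350191-74350490, minus strand) holds 3 NRF1 matches, and Sdhd (chr9:50603800-50604099, minus strand) holds an NRF1, an ETS and an ERR match.
Sdha: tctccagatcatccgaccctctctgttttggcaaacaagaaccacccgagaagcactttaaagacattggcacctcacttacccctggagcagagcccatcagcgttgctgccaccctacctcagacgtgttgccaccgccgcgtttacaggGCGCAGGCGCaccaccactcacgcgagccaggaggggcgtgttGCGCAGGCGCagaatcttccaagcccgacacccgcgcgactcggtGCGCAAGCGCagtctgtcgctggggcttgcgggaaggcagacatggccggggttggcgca
Sdhd: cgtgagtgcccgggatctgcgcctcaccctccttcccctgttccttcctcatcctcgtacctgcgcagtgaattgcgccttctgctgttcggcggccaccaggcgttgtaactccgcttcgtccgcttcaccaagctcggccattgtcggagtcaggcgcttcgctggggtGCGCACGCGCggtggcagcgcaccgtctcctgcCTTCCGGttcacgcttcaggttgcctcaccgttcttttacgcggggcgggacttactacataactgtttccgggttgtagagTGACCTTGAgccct
Ndufs6, an accessory subunit of complex I, had 5.22 in Mob1DKO and 5.39 in WT cells, and Atp5j2, a membrane subunit of complex V, had 5.61 in Mob1DKO and 5.77 in WT cells. Of the windows shown, the NRF1 letters stood in those of Ndufs6 at −0.17, Sdha at 0.08 and Sdhd at 0.16. These windows were picked with the differences known, so this contrast was set by the choice. Over all 17 measured subunits with the NRF1 letters the median was −0.12. Whether the letters bear on the differences was not tested.

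With the brightest probe of each gene, the order of the complexes by median was V (−0.17), IV (−0.16), I (−0.16), III (−0.10) and II (0.05). The quartiles of the first 3 overlapped. Complex III overlapped them too, with quartiles of −0.17 and −0.05, and complex II had quartiles of −0.02 and 0.10. With each probe counted once, medians relative to all genes were −0.20 (IV), −0.17 (V), −0.17 (I), −0.16 (III) and −0.03 (II).

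**Figure D5:**
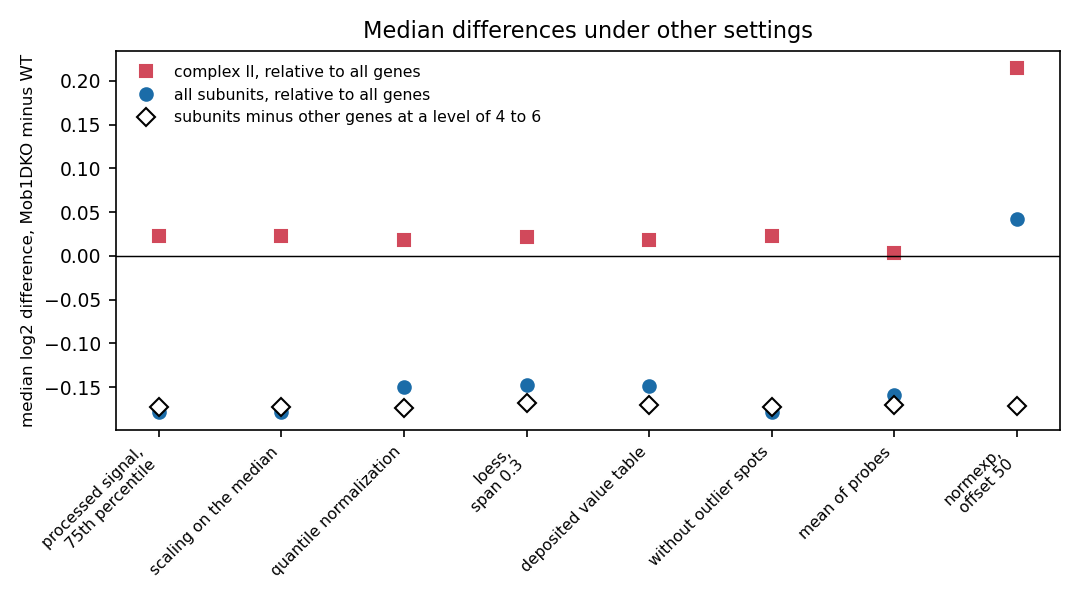
Median log2 differences (Mob1DKO minus WT) are shown for 8 settings of the processing. Blue circles (all subunits) and red squares (complex II) are relative to the median of all genes, and open diamonds give subunits minus other genes at levels of 4 to 6. The diamonds stay between −0.174 and −0.168, while circles and squares move upward under the normexp correction, to 0.04 and 0.21. Settings that move genes of a like level together leave the diamonds in place by construction.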

How the data were processed

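Total RNA was labelled with Cy3 and hybridised to Agilent 1-colour arrays, 1 per group, per the labels. The deposited scanner files hold intensity values from Agilent Feature Extraction (10.7.1.1 per the file headers, 9.5.1.1 per the submitters' processing notes) on a grid built on mm9, background-subtracted and detrended within each array. The deposited value table also holds intensity values. The sources used here do not give its making, and its columns share the same sorted values.

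Spots of a probe were averaged, and log2 signal was taken minus the 75th percentile of 55681 non-control probes (signals of 291.2 in Mob1DKO and 155 in WT, with 58.6% and 53.1% of probes well above background and no spot saturated). The files pair probes with accessions only: 27235 probes were named through RefSeq accessions on GRCm38.p6. Each of 15099 genes was read from its brightest probe that passed the background flag on 1 array or both. A call needed a log2 difference of 1 in size and a brighter array well above background. The bound for Ndufa4l2 sets the brighter level against the dim array's own value or, if higher, the lowest level well above background there (−4.10 in Mob1DKO and −3.45 in WT). The calls were tested on simulated data. Named genes are members past 2-fold, the extremes and brightest of each complex, core subunits, tissue isoforms with partners, X-linked members and the 5 widest probe gaps, with a few further members given as examples. Members and lists were chosen with earlier results of these data known. Python 3.11.15, numpy 2.4.6, pandas 2.3.3 and limma 3.58.1 were used. Normexp was run on the median spot signal. The values of 1 member are not reported here.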

Additional observations from a re-analysis of the deposited data

How the results depend on the processing

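Nothing was tested, and 1 array a group leaves animals, sex, cell makeup and preparation inseparable from genotype. Alternatives were scaling on the median, quantile normalization, loess (span 0.3), normexp (offset 50), the deposited value table, other filters on dim probes, removal of outlier spots and other rules for several probes. Naming by the file's gene name was not run, since probes were named by accession. No paired analysis was possible because each group has 1 array.

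With no filter on dim probes, medians relative to all genes were −0.1082 for all subunits in place of −0.1790, −0.1082 for complex I, 0.0959 for complex II, −0.0547 for complex III, −0.1345 for complex IV, −0.1195 for complex V and −0.0575 for assembly factors. Without that filter the median of all genes itself went from 0.0236 to −0.0501, over 20660 genes in place of 15099. The change thus lies largely in that reference. Under normexp the medians relative to all genes were 0.0371 for complex I, 0.2147 for complex II, 0.0675 for complex III, 0.0160 for complex IV, 0.0411 for complex V, 0.0089 for assembly factors and 0.0417 for all subunits. Members below the median of genes on both arrays then numbered 44 in place of 80, and 2 were higher by 0.32 or more in place of 0. The gap to other genes at levels of 4 to 6, an alternative added after the data were seen, kept its direction and size under all 7 settings run. Settings that move genes of a like level together leave this gap in place by construction. Under normexp the gap shrank from −0.15 to −0.11 at levels of 2 to 4, and from −0.08 to −0.05 at 6 to 8. The complex II median relative to all genes was 0.02, and −0.03 with each probe counted once. The single 2-fold call, Ndufa4l2, gave a count of 0 where a gene had to pass the background flag on each array, with the mean of probes, which needs both arrays, and without that gene. Its difference relative to all genes was −3.40, or −1.64 under normexp, whose offset shrinks faint differences. Of 49 named members measured, 42 moved by over their technical SD under at least 1 setting, and 27 kept their sign under all settings run. The number of arrays and the faint signal of isoforms limit the precision.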
